A study of Mus musculus with 24 samples.

Results

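The potassium channel genes of the mouse kidney were taken as every gene of the deposited expression table whose symbol begins with Kcn, which gave 40 of 14407 genes. They were measured by RNA sequencing of whole left kidneys of wildtype mice. The mice had unilateral ureteral obstruction (UUO), in which the ureter of 1 kidney is tied so that urine backs up and the kidney scars, or sham surgery without it. They received istradefylline, an adenosine receptor antagonist, as an early or a late intervention, or vehicle. The 6 groups, with 4 libraries each, were UUO vehicle, UUO early, UUO late, sham vehicle, sham early and sham late. The labels give no dose, no days and no word on which mouse a library came from, so p-values measure the spread between libraries, which may be technical.

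Potassium channels let potassium cross the cell membrane along its gradient and set the membrane voltage. In the nephron, apical channels of the thick ascending limb and collecting duct return potassium to the urine, and basolateral channels of the proximal and distal tubule recycle the potassium that the sodium pump brings in. Channels outside the tubule set the tone of vessels and the calcium entry of leukocytes and fibroblasts.

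The 40 genes comprise 8 inward rectifiers (Kcnj), 6 two-pore channels (Kcnk), 4 calcium- or sodium-activated channels (Kcnn, Kcnt), 12 voltage-gated pore subunits and 10 auxiliary subunits (Kcnab, Kcne, Kcnip, Kcnmb). The other 54 of the 94 protein-coding Kcn symbols in the GENCODE M21 annotation were not analysed here. Levels are FPKM, fragments per kilobase of transcript scaled to the mapped fragments, so that levels of different genes can be compared per length. Of the 40 members, 28 reached 1 FPKM in at least 4 of the 24 libraries and were tested, among 13127 genes in all. The 12 that were not tested included Kcnab3, Kcnc2, Kcnd3, Kcng2, Kcnh1, Kcnh8, Kcnip2, Kcnj11, Kcnj13 and Kcnk3, and the highest value of any of them was 3.03 FPKM.

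The libraries were estimated to hold 7724329 to 12854077 fragments, from the smallest steps in the transcript values, so 1 FPKM of a transcript of 2 kb stood for about 15.4 to 25.7 fragments. Markers of the kidney were present in every group. The summed FPKM of 5 proximal tubule markers was 65.4 to 571 in the 12 UUO libraries and 953 to 1467 in the 12 sham libraries, while 5 macrophage markers summed to 318 to 697 in UUO and 24.5 to 35.0 in sham libraries. UUO early library 4 stood apart, with 1942 FPKM in 3 skeletal muscle markers, against 0.847 to 97.3 FPKM in the other UUO libraries and 0.810 to 1.81 FPKM in sham libraries. Sham vehicle library 2 had the lowest proximal tubule sum of the sham libraries, 953 FPKM, and the highest thick ascending limb sum, 1028 FPKM. Without UUO early library 4 the same 23 members were called in early kidneys, and without sham vehicle library 2 the vehicle comparison lost 3 calls, Kcne3, Kcnip3 and Kcnj2, and gained 1, Kcnk1.

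Obstruction moved most of the tested channel genes, in both directions. On the log2(FPKM + 1) scale, limma with Benjamini-Hochberg adjustment over all tested genes called 20 of 28 members in UUO vehicle against sham vehicle, 14 higher and 6 lower, against 67.0% of all tested genes called, 50.3% higher and 16.7% lower. In UUO early against sham early 23 of 28 were called, 16 higher and 7 lower, against 71.9% of all genes, 54.7% higher and 17.3% lower. In UUO late against sham late 20 of 28 were called, 14 higher and 6 lower, against 75.6% of all genes, 59.0% higher and 16.5% lower. The shares of members called were near those of all genes. The median log2 difference of the tested members was 0.38, 0.74 and 0.52 in the vehicle, early and late comparisons, beside 0.32, 0.40 and 0.49 over all tested genes. These counts depend on who could be tested: 12 of the 28 had no sham library at 1 FPKM and 2 had no UUO library at 1 FPKM, so those members entered through 1 surgery alone.

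The median of all genes lay above 0 in the deposited FPKM. With median-of-ratios scaling the median over all genes was 0.02, 0.03 and 0.03 in the vehicle, early and late comparisons, and the calls over all genes divided into 4164 higher and 3952 lower, 4531 higher and 4281 lower, and 4644 higher and 4430 lower, beside 6604 and 2186, 7176 and 2265, and 7750 and 2170 as deposited. Members called under that scaling were 11 higher and 7 lower, 14 higher and 10 lower, and 14 higher and 9 lower. Directions that turned with the scaling are named beside the gene or in the closing section on processing. For Kcne1l and Kcnn1 the values under other scalings are not given.

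**Figure D1:**
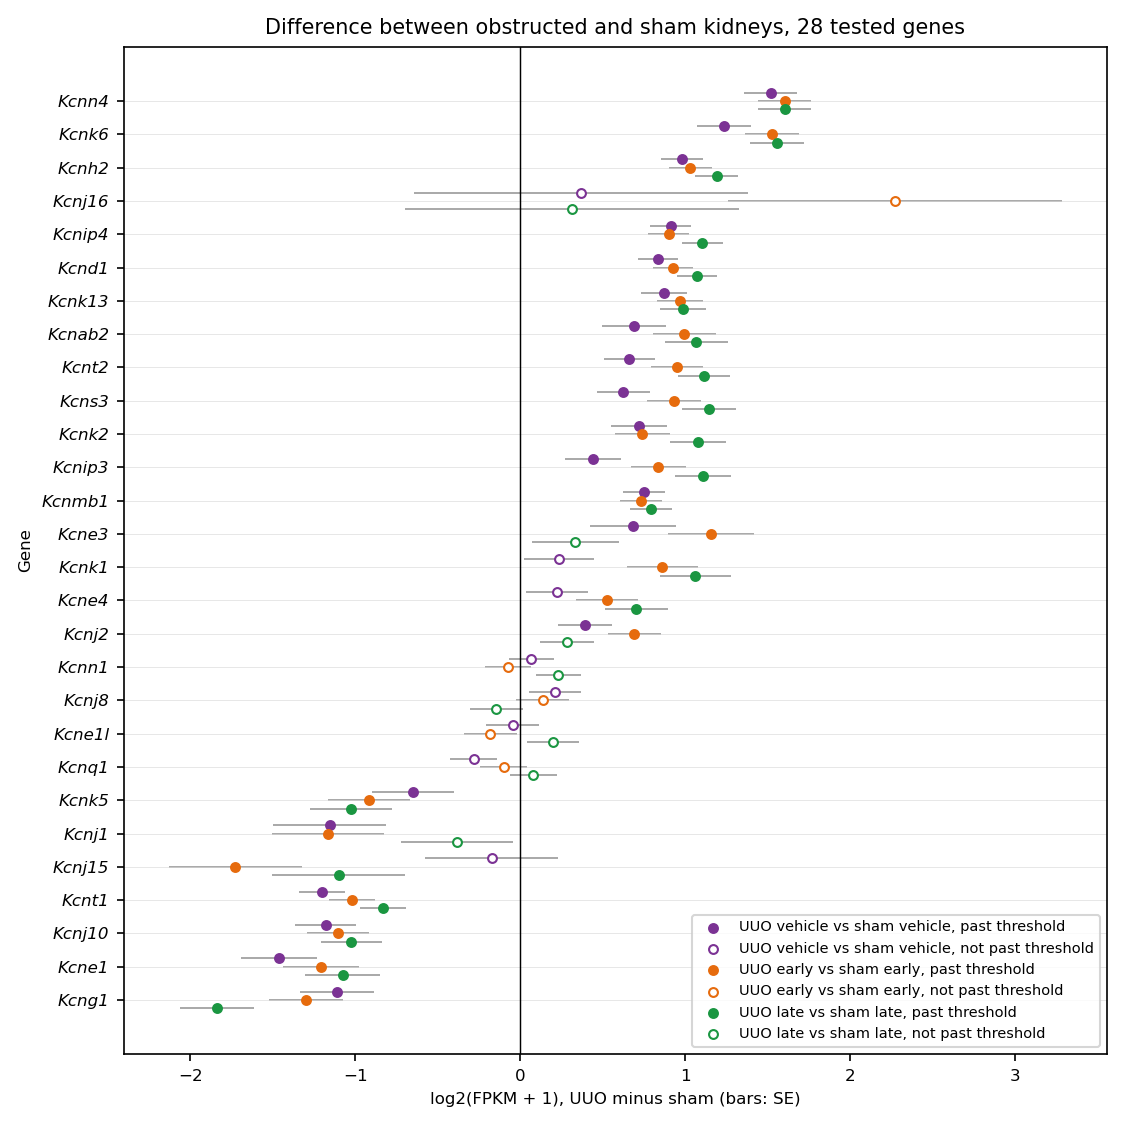
Differences in log2(FPKM + 1), UUO minus sham, for the 28 tested potassium channel genes under vehicle, early and late istradefylline, ordered by their mean; points are estimates, bars are standard errors, and filled points passed an adjusted p of 0.05. Kcnn4 and Kcnk6 lie highest, Kcng1 and Kcne1 lowest, and Kcnj16 has the widest error bars.

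12 members were called higher in all 3 comparisons, as were 46.3% of all tested genes: Kcnab2, Kcnd1, Kcnh2, Kcnip3, Kcnip4, Kcnk2, Kcnk6, Kcnk13, Kcnmb1, Kcnn4, Kcns3 and Kcnt2. Of these 12, 11 had no sham library at 1 FPKM and entered the test through UUO libraries alone, so the count is not read against that share. 5 members were called lower in all 3, as were 13.2% of all tested genes: Kcne1, Kcng1, Kcnj10, Kcnk5 and Kcnt1, of which 2, Kcng1 and Kcnt1, had no UUO library at 1 FPKM. All 12 UUO libraries lay above all 12 sham libraries for 10 members, against 35.1% of all tested genes. Of these 10, all but Kcns3 had no sham library at 1 FPKM, so this count is not read against that share either. All 12 UUO libraries lay below all 12 sham libraries for 3, Kcne1, Kcnj10 and Kcnt1, against 9.51% of all tested genes. The 5 members called in none of the 3 comparisons were Kcne1l, Kcnj8, Kcnj16, Kcnn1 and Kcnq1.

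To show the sequence before the start of genes that moved opposite ways, the 250 bases upstream of a RefSeq start are printed for 4 members. They are the 2 with the largest mean change among those lower in all 3 comparisons, and the 2 among those higher in all 3. They were taken from members with a RefSeq entry within 1000 bases of a listed gene or transcript start. An entry was found for 28 of the 40 members. All are written 5′ to 3′ on the strand of the gene, in build GRCm38.p6. Kcnj10 lies at chr1:172340960-172341209 on the plus strand, Kcnk5 at chr14:20181783-20182032 on the minus strand, Kcnn4 at chr7:24370013-24370262 on the plus strand and Kcnip4 at chr5:49285660-49285909 on the minus strand. Capitals mark matches, on either strand, to the TATA box TATAAA, the GC box GGGCGG, the AP-1 motif TGANTCA or the HNF1 half-site GTTAAT.
Kcnj10: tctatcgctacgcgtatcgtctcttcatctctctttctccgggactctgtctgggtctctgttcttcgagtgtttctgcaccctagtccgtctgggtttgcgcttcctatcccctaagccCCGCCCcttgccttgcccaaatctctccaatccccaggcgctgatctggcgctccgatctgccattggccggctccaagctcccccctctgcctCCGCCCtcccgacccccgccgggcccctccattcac
Kcnk5: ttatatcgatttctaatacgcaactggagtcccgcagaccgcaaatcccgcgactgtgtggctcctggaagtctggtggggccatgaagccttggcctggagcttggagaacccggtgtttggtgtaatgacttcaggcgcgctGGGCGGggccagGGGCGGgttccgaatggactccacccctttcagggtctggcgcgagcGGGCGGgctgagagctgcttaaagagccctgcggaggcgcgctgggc
Kcnn4: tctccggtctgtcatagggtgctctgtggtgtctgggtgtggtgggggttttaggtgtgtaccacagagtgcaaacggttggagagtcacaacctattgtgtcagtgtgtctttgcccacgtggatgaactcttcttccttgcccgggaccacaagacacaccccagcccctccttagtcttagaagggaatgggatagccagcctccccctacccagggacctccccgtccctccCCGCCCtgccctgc
Kcnip4: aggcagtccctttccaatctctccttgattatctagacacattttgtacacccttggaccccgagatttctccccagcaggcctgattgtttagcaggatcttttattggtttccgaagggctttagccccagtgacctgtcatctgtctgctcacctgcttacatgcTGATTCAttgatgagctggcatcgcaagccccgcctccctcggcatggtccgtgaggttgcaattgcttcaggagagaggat
The Kcnj10, Kcnk5 and Kcnn4 windows held 2, 3 and 1 GC boxes. The Kcnip4 window held 1 AP-1 match, 82 bases before the start of the transcript Kcnip4-206. That start, at 49285659, belongs to 1 of 2 RefSeq entries of the gene. Both the listed gene and Kcnip4-201 start at 49524907 on the minus strand. Among 32851 promoter windows of the same length, 32.7% held a GC box, 6.75% an AP-1 match, 12.4% a TATA box and 6.43% an HNF1 half-site. None of the 4 windows held the TATAAA or GTTAAT letters. GC content was 62% in Kcnj10, 62.8% in Kcnk5, 58.8% in Kcnn4 and 51.2% in Kcnip4, against a median of 52.4% over all windows.

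Among the inward rectifiers of the tubule, Kcnj10 fell in obstructed kidneys under all 3 treatments. Kcnj10 encodes Kir4.1, the basolateral channel of the distal convoluted tubule that pairs with the Kcnj16 product Kir5.1. Its level was 2.34, 2.92, 4.17 and 3.57 FPKM in UUO vehicle, 5.24, 4.32, 4.86 and 2.72 FPKM in UUO early, and 4.94, 3.86, 3.39 and 2.77 FPKM in UUO late libraries. It was 6.39, 12.3, 8.16 and 8.01 FPKM in sham vehicle, 9.52, 10.9, 9.41 and 10.8 FPKM in sham early, and 7.63, 10.5, 8.87 and 7.36 FPKM in sham late libraries. Every UUO library lay below every sham library. The log2 difference was -1.18 ± 0.19 (SE) in vehicle, -1.10 ± 0.19 in early and -1.02 ± 0.19 in late kidneys, with limma adjusted p of 1.25e-05, 2.13e-05 and 4.36e-05. The summed distal convoluted tubule markers were 12.9 to 59.4 FPKM in 11 UUO libraries and 108 to 164 FPKM in the 12 sham libraries. Of these 4 markers, 3, 2 and 3 were called lower and 1, 1 and 1 higher in vehicle, early and late kidneys. Their part in the Kcnj10 change was not tested. In UUO early library 4 the sum was 737 FPKM, in a list that holds Pvalb, which skeletal muscle also expresses.

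Kcnj1, which encodes the apical potassium secretory channel ROMK of the thick ascending limb and collecting duct, fell in UUO vehicle and UUO early kidneys. It had 17.2, 20.1, 19.5 and 31.1 FPKM in UUO vehicle and 26.7, 77.2, 54.2 and 50.8 FPKM in sham vehicle libraries, a log2 difference of -1.15 ± 0.34 (SE; limma adjusted p = 0.00535) that was -0.94 without sham vehicle library 2. It had 17.6, 26.0, 27.9 and 17.3 FPKM in UUO early and 38.5, 58.8, 56.1 and 48.6 FPKM in sham early libraries, a difference of -1.16 ± 0.34 (adjusted p = 0.00448). The early groups did not overlap, and in the vehicle groups 1 UUO library lay above the lowest sham library. In UUO late libraries it had 51.6, 34.5, 37.2 and 17.5 FPKM, against 21.5, 47.1, 65.0 and 52.5 FPKM in sham late libraries, groups that overlapped widely (difference -0.38 ± 0.34, adjusted p = 0.312). That difference was -0.71 without sham late library 1 and -0.092 without UUO late library 4, the ends of its range when 1 library was left out. With median-of-ratios scaling Kcnj1 was lower in late kidneys too, at -0.97, past the threshold. The sums of 4 thick ascending limb markers were 277 to 719 FPKM in UUO and 622 to 1028 FPKM in sham libraries. Of these 4 markers, 3 were called lower in each comparison, and 0, 1 and 1 were called higher in vehicle, early and late kidneys. In late kidneys, where Kcnj1 was not called as deposited, the sums averaged 525 FPKM in UUO and 833 FPKM in sham libraries. The part of these markers in the Kcnj1 change was not tested. In bulk kidney, fewer cells of a type and less RNA per cell cannot be told apart. In sham vehicle library 2, where the gene stood at 77.2 FPKM, its second transcript Kcnj1-202 had 32.9 FPKM, against 0.0258 to 1.39 FPKM in the other sham vehicle libraries.

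Kcnj15 encodes Kir4.2, a basolateral channel of the proximal tubule. It had 4.87, 11.2, 19.4 and 19.8 FPKM in UUO early and 38.7, 33.3, 65.9 and 38.8 FPKM in sham early libraries, with no overlap, and fell by 1.73 ± 0.40 on the log2 scale (SE; limma adjusted p = 0.000702). It had 34.8, 16.8, 17.4 and 20.3 FPKM in UUO late and 54.1, 43.1, 46.3 and 44.8 FPKM in sham late libraries, again with no overlap, and fell by 1.10 ± 0.40 (adjusted p = 0.0184). The late call was lost when FPKM were rescaled to equal sums, at -0.85. Under vehicle the groups overlapped throughout, with 50.5, 28.3, 15.1 and 29.6 FPKM in UUO vehicle and 64.3, 24.6, 17.8 and 37.1 FPKM in sham vehicle libraries (difference -0.17 ± 0.40, adjusted p = 0.721). Its highest transcript changed from library to library: Kcnj15-206 led in 13 libraries, Kcnj15-208 in 6, all 4 sham late libraries among them, Kcnj15-204 in 4 and Kcnj15-202 in 1.

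Kcnj16, which encodes Kir5.1, was the most abundant member, with a mean of 71.9 FPKM over the 24 libraries, and was not called in any comparison of the FPKM as deposited with a pseudocount of 1. UUO libraries lay together, at 81.7, 66.9, 79.4 and 65.8 FPKM under vehicle, 75.0, 82.0, 89.2 and 42.3 FPKM under early and 83.3, 78.7, 71.5 and 44.7 FPKM under late istradefylline. Sham libraries lay in a high and a low set: 130, 115, 119 and 4.97 FPKM under vehicle, 134, 5.79, 6.14 and 5.94 FPKM under early and 110, 5.30, 108 and 121 FPKM under late istradefylline. Thus 7 sham libraries were above all 12 UUO libraries and 5 were below all of them, with a 17.5-fold gap between 6.14 and 108 FPKM. Such a gap of 10-fold or more among sham libraries was seen in 21 of the 2739 genes whose UUO mean was at least 20 FPKM. The log2 difference was 0.37 ± 1.01 (SE) in vehicle, 2.27 ± 1.01 in early and 0.31 ± 1.01 in late kidneys, with limma adjusted p of 0.764, 0.0502 and 0.785. The direction turned with 1 library in vehicle and late kidneys: without sham vehicle library 4 it was -0.72, and without sham late library 2 it was -0.73. In early kidneys the direction held, and without sham early library 1 the difference was 3.34 and past the threshold. The early difference was also past the threshold with a pseudocount of 0.1 (2.40) or 0.5 (2.34), with FPKM rescaled to equal sums (2.44) and with the replicate number as a block (2.27).

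The transcripts of Kcnj16 are given beside that gap. Kcnj16-205 and Kcnj16-206, of 3678 and 3701 bases, share 3557 bases, and Kcnj16-202 shares 3620 bases with Kcnj16-206. In the 5 low sham libraries Kcnj16-205 was at 0 to 0.00708 FPKM and Kcnj16-206 at 0.775 to 2.53 FPKM. The leading transcript was Kcnj16-206 in 11 libraries, Kcnj16-205 in 7 and Kcnj16-202 in 6. In sham late library 1 most of the level was listed under Kcnj16-202, at 99.96 FPKM, a transcript that lay between 1.12 and 4.74 FPKM in every other library. How the low values arose was not tested, and a mean over a sham group lies where no library does.

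**Figure D2:**
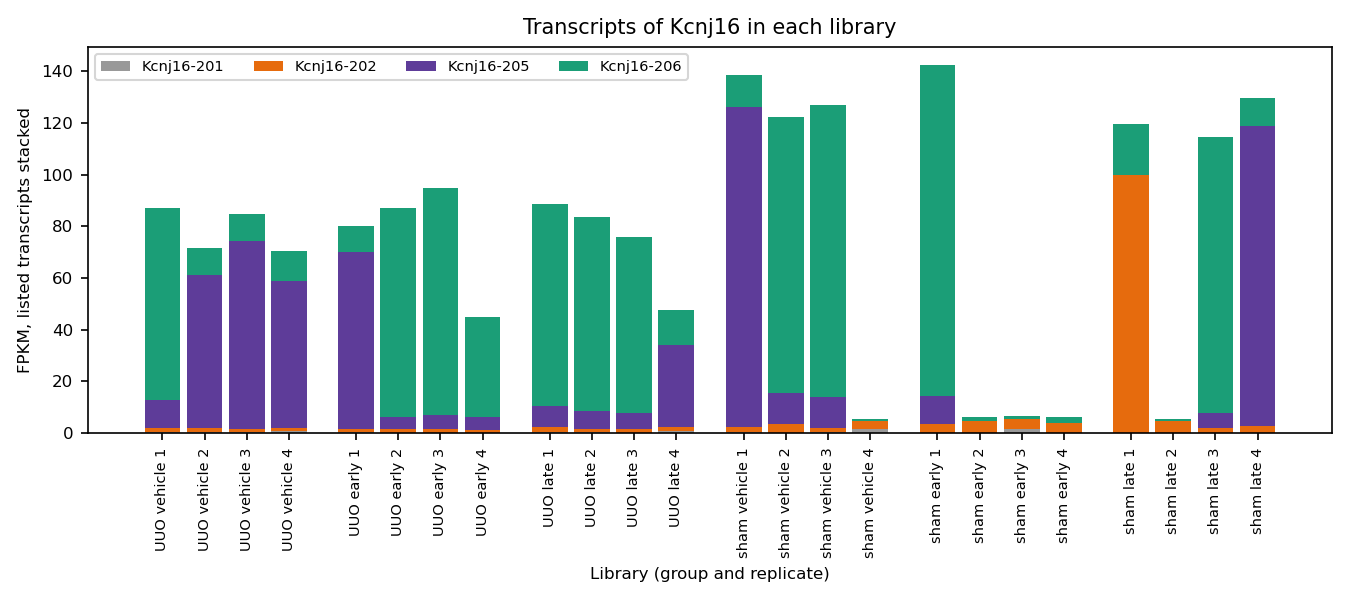
FPKM of the 4 listed Kcnj16 transcripts, stacked, in each of the 24 libraries (vertical axis from 0, libraries by group and replicate along the horizontal axis). The bars of 7 sham libraries stand above those of all 12 UUO libraries, the bars of 5 sham libraries stay far below them, and the leading transcript changes between libraries.

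Of the inward rectifiers with a wider distribution, Kcnj8 encodes Kir6.1, the pore of the vascular ATP-sensitive channel. It averaged 5.44 ± 0.44, 4.45 ± 0.46 and 4.28 ± 1.73 FPKM in UUO vehicle, early and late kidneys, and 4.61 ± 0.89, 3.96 ± 0.32 and 4.62 ± 0.37 FPKM in sham vehicle, early and late kidneys (SD, n = 4 each). The log2 differences of 0.21, 0.14 and -0.14 did not pass the threshold, and they were -0.12, -0.25 and -0.64 with median-of-ratios scaling, the last past the threshold. Its level overlapped between the surgeries under each treatment, while the summed smooth muscle and pericyte markers were 149 to 441 FPKM in UUO and 25.6 to 66.2 FPKM in sham libraries. Kcnj2, which encodes the strong inward rectifier Kir2.1, had 1.59, 1.21, 1.34 and 3.32 FPKM in UUO early and 1.00, 0.396, 0.712 and 0.778 FPKM in sham early libraries. The early groups did not overlap, and the gene rose by a log2 difference of 0.69 ± 0.16 (SE; limma adjusted p = 0.000713), and by 0.47 without UUO early library 4, the library high in skeletal muscle markers. In vehicle kidneys the rise of 0.39 ± 0.16 (adjusted p = 0.0382) was lost with median-of-ratios scaling, at 0.22, and when any of 6 single libraries was left out. In late kidneys the Kcnj2 difference of 0.28 was not past the threshold as deposited. It was 0.41 and past the threshold with FPKM rescaled to equal sums.

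**Figure D3:**
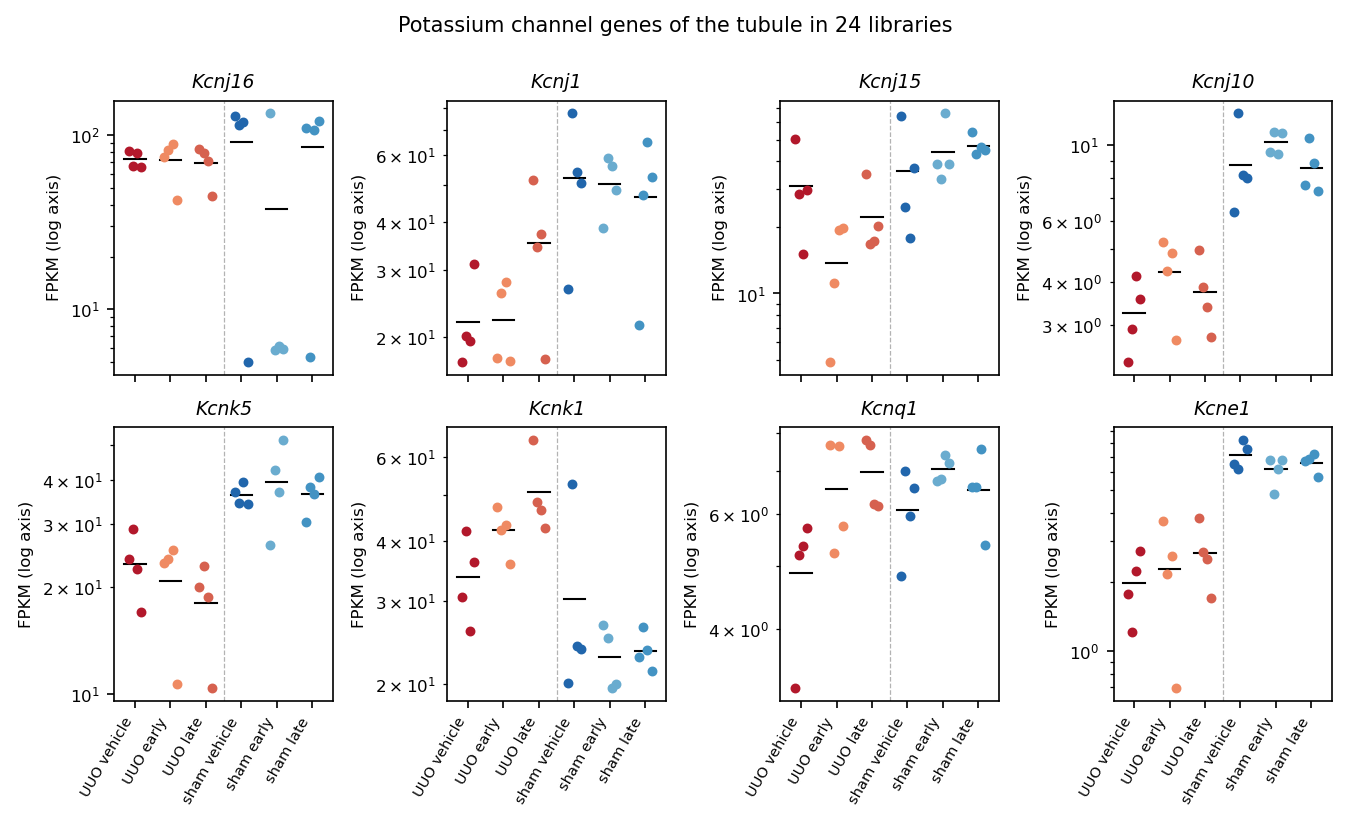
FPKM on a log axis of 8 potassium channel genes with a known place in the tubule, by group (UUO left of the dashed line, sham right of it); points are libraries and lines are group means. UUO points lie below all sham points for Kcnj10 and Kcne1, and Kcnj16 divides the sham libraries into a high and a low set.

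Of the 2 abundant two-pore channels, Kcnk5 fell in all 3 comparisons and Kcnk1 rose in early and late kidneys. Kcnk5 encodes TASK-2, a basolateral channel linked to bicarbonate reabsorption in the proximal tubule. It had 23.9, 29.1, 22.5 and 16.9 FPKM in UUO vehicle, 23.3, 24.0, 25.3 and 10.7 FPKM in UUO early, and 19.9, 22.9, 18.6 and 10.4 FPKM in UUO late libraries. It had 36.8, 34.4, 39.3 and 34.2 FPKM in sham vehicle, 26.3, 42.7, 36.9 and 51.8 FPKM in sham early, and 30.4, 38.2, 36.5 and 40.6 FPKM in sham late libraries. Within each treatment every UUO library lay below every sham library. Kcnk5 fell by 0.65 ± 0.25, 0.92 ± 0.25 and 1.03 ± 0.25 on the log2 scale in vehicle, early and late kidneys (SE; limma adjusted p of 0.0269, 0.0025 and 0.000906). Without UUO early library 4 the early difference was -0.64 and still past the threshold. The vehicle call was lost when FPKM were rescaled to equal sums (-0.51), without UUO vehicle library 4 (-0.51) and without sham vehicle library 3 (-0.61). Proximal tubule markers moved the same way, and their part was not tested.

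Kcnk1 encodes TWIK-1, a channel found in the distal nephron. It had 30.6, 42.0, 25.9 and 36.2 FPKM in UUO vehicle, 47.2, 42.3, 43.2 and 35.8 FPKM in UUO early, and 65.3, 48.5, 46.5 and 42.7 FPKM in UUO late libraries. It had 20.1, 52.8, 24.1 and 23.8 FPKM in sham vehicle, 26.7, 25.0, 19.6 and 20.0 FPKM in sham early, and 22.9, 26.4, 23.6 and 21.3 FPKM in sham late libraries. Early and late groups did not overlap with their sham groups, and in vehicle groups only sham vehicle library 2 stood above the UUO libraries. Kcnk1 rose by 0.86 ± 0.21 and 1.06 ± 0.21 on the log2 scale in early and late kidneys (SE; limma adjusted p of 0.00125 and 0.00015) and differed by 0.24 ± 0.21 in vehicle kidneys (adjusted p = 0.344). Without sham vehicle library 2 the vehicle difference was 0.53 and past the threshold. With median-of-ratios scaling it was -0.14 in vehicle kidneys, 0.40 and no longer past the threshold in early kidneys, and 0.47 in late kidneys. Principal cell markers summed to 62.7 to 207 FPKM in UUO and 260 to 454 FPKM in sham libraries. Intercalated cell markers summed to 28.7 to 72.4 FPKM in UUO and 61.2 to 83.0 FPKM in sham libraries. The part of these cells in the Kcnk1 level was not tested. Of the 2 Kcnk1 transcripts, Kcnk1-201 averaged 25.2, 34.2 and 41.5 FPKM in UUO vehicle, early and late kidneys. It averaged 17.9, 12.8 and 14.0 FPKM in sham vehicle, early and late kidneys. Kcnk1-202 averaged 14.5, 13.5 and 15.8 FPKM in the UUO groups and 20.9, 17.2 and 16.3 FPKM in the sham groups in the same order. The higher gene level in UUO was thus listed under Kcnk1-201. All 1309 bases of Kcnk1-202 lie within Kcnk1-201, but Kcnk1-202 has 4 exons and Kcnk1-201 has 3. How fragments were divided between the transcripts was not tested.

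Kcnk6, Kcnk13 and Kcnk2 were low in sham kidneys and rose in all 3 comparisons. Kcnk6 encodes TWIK-2, known as a potassium efflux channel of macrophages. Its level was 1.21, 1.98, 2.68 and 2.32 FPKM in UUO vehicle, 2.49, 1.85, 1.73 and 2.72 FPKM in UUO early, and 2.01, 3.02, 1.59 and 3.71 FPKM in UUO late libraries, against 0 to 0.393 FPKM in the 12 sham libraries. No UUO library overlapped with a sham library, and the log2 differences were 1.23 ± 0.16, 1.52 ± 0.16 and 1.56 ± 0.16 (SE; limma adjusted p of 1.49e-06, 6.47e-08 and 3.71e-08). Kcnk13, which encodes THIK-1, a channel of microglia and macrophages, had 0.543 to 1.67 FPKM in the 12 UUO libraries and 0 to 0.0624 FPKM in the 12 sham libraries, and rose by 0.87, 0.97 and 0.99. Kcnk2, which encodes the mechanically gated channel TREK-1, had 0.689 to 2.70 FPKM in UUO and 0.210 to 0.949 FPKM in sham libraries, overlapping only through sham vehicle library 1 at 0.949 FPKM and UUO libraries below it, and rose by 0.72, 0.74 and 1.08. Macrophage markers were higher in every UUO than in every sham library, and their part in these changes was not tested.

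Among the called members Kcnn4 had the largest positive log2(FPKM + 1) difference in each of the 3 comparisons as deposited, on a scale that understates the change of low genes. It encodes KCa3.1, the calcium-activated channel of lymphocytes, macrophages and proliferating fibroblasts. It had 2.04, 2.15, 3.10 and 1.57 FPKM in UUO vehicle, 1.82, 2.55, 1.85 and 4.27 FPKM in UUO early, and 1.80, 2.54, 2.18 and 2.99 FPKM in UUO late libraries. It had 0.0891, 0.0939, 0.0898 and 0.156 FPKM in sham vehicle, 0.172, 0.151, 0.167 and 0.124 FPKM in sham early, and 0.0538, 0.0370, 0.158 and 0.170 FPKM in sham late libraries. The lowest UUO library stood far above the highest sham library. The log2 difference was 1.52 ± 0.16, 1.60 ± 0.16 and 1.60 ± 0.16 (SE; limma adjusted p of 7.05e-08, 2.38e-08 and 1.87e-08). Summed T cell markers were 3.47 to 20.5 FPKM in UUO and 0.277 to 1.05 FPKM in sham libraries, and fibroblast markers 139 to 539 FPKM in UUO and 5.83 to 16.1 FPKM in sham libraries. The part of these cells in the Kcnn4 level was not tested.

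The sodium-activated channels went opposite ways. Kcnt1, which encodes Slack, was listed at 0 to 0.185 FPKM in the 12 UUO libraries and at 0.626 to 2.33 FPKM in the 12 sham libraries, and fell by 1.20 ± 0.14, 1.02 ± 0.14 and 0.83 ± 0.14 on the log2 scale in vehicle, early and late kidneys (SE; limma adjusted p of 2.55e-07, 1.7e-06 and 1.73e-05). Its relative Kcnt2, which encodes Slick, had 0.621 to 2.38 FPKM in UUO and 0.0265 to 0.149 FPKM in sham libraries, and rose by 0.66 ± 0.16, 0.95 ± 0.16 and 1.12 ± 0.16 (adjusted p of 0.000923, 1.75e-05 and 2e-06). Neither gene overlapped between the surgeries. Kcnn1, a small-conductance calcium-activated channel, had 0.697 to 1.60 FPKM in UUO and 0.622 to 1.15 FPKM in sham libraries and was not called.

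**Figure D4:**
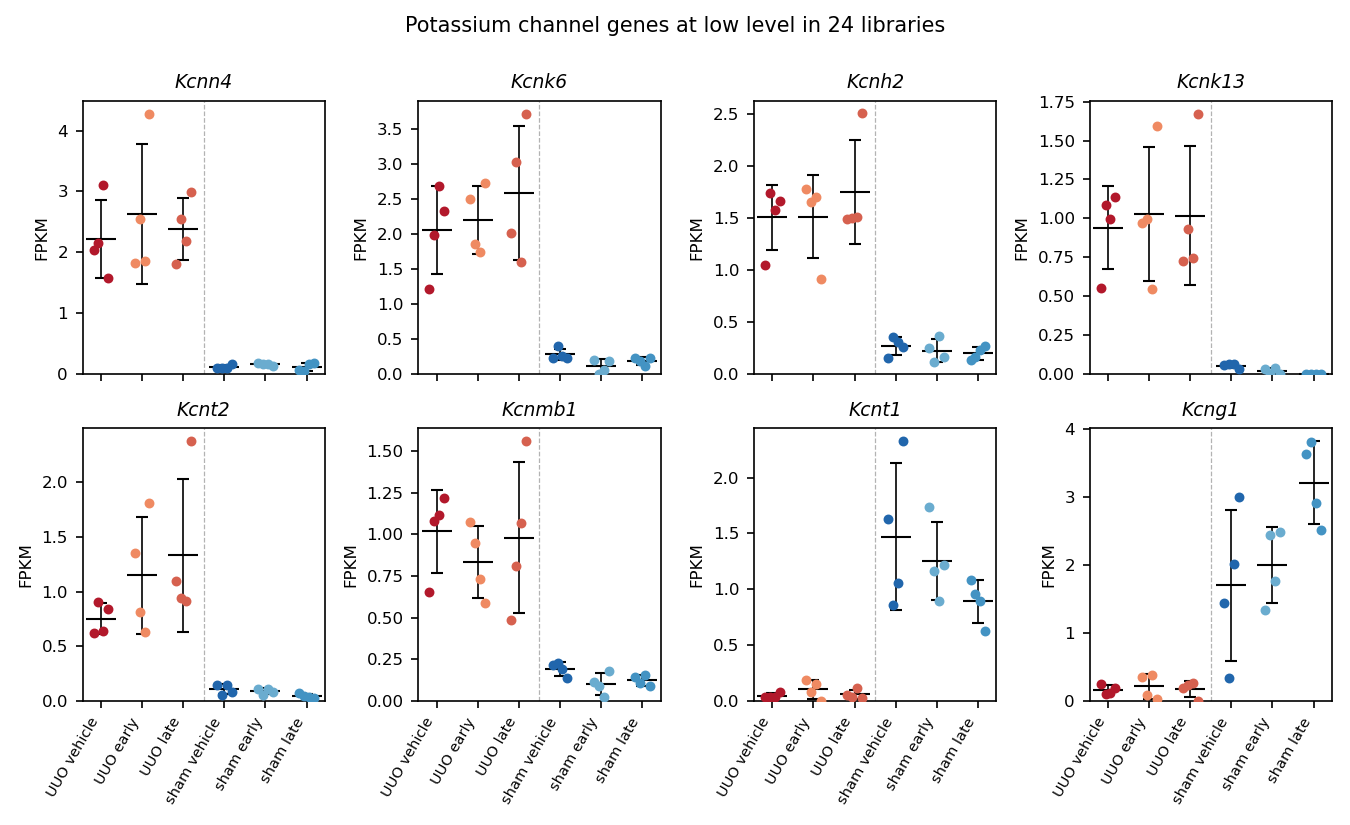
FPKM of 8 potassium channel genes at low level, by group (UUO left of the dashed line, sham right of it); points are libraries, dashes are means and bars are SD over 4 libraries. For the first 6 genes every UUO point lies above every sham point, and for Kcnt1 every UUO point lies below every sham point.

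Among the voltage-gated subunits, Kcnq1 was not called, and its auxiliary partner Kcne1 fell in all 3 comparisons. Kcnq1 encodes a slow voltage-gated channel that the auxiliary subunit Kcne1 (minK) modifies in heart and proximal tubule. Kcnq1 averaged 4.88 ± 1.11, 6.57 ± 1.26 and 6.96 ± 0.89 FPKM in UUO vehicle, early and late and 6.09 ± 0.94, 7.03 ± 0.31 and 6.54 ± 0.89 FPKM in sham vehicle, early and late kidneys (SD, n = 4 each), with log2 differences of -0.28, -0.10 and 0.08 and limma adjusted p of 0.085, 0.537 and 0.617. With median-of-ratios scaling it was lower and past the threshold in all 3, by -0.61, -0.52 and -0.45. Kcne1 had 1.78, 1.22, 2.23 and 2.74 FPKM in UUO vehicle, 3.69, 2.16, 2.60 and 0.690 FPKM in UUO early, and 3.78, 2.69, 2.51 and 1.70 FPKM in UUO late libraries. It had 6.51, 6.18, 8.29 and 7.54 FPKM in sham vehicle, 6.78, 4.83, 6.21 and 6.80 FPKM in sham early, and 6.71, 6.82, 7.17 and 5.70 FPKM in sham late libraries. All UUO libraries were below all sham libraries, and the log2 differences were -1.46 ± 0.23, -1.21 ± 0.23 and -1.08 ± 0.23 (SE; adjusted p of 1.22e-05, 8.65e-05 and 0.000255). Whether the difference of Kcne1 departs from that of Kcnq1 was not tested.

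Kcng1 had the largest fall in late kidneys. It encodes Kv6.1, a silent subunit that modifies other voltage-gated channels. It was listed at 0 to 0.375 FPKM in the 12 UUO libraries, and in sham kidneys at 1.44, 0.333, 2.01 and 3.00 FPKM under vehicle, 1.33, 2.44, 1.75 and 2.48 FPKM under early, and 3.63, 3.80, 2.90 and 2.51 FPKM under late istradefylline. Only sham vehicle library 2, at 0.333 FPKM, came within the UUO range. It fell by 1.11 ± 0.22, 1.30 ± 0.22 and 1.84 ± 0.22 on the log2 scale in vehicle, early and late kidneys (SE; limma adjusted p of 0.000196, 2.84e-05 and 2.93e-07), and by 1.41 under vehicle without sham vehicle library 2, again past the threshold.

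The other voltage-gated subunits that were tested rose. Kcnh2, which encodes the delayed rectifier hERG, had 0.916 to 2.51 FPKM in the 12 UUO libraries and 0.112 to 0.365 FPKM in the 12 sham libraries, and rose by 0.98 ± 0.13, 1.03 ± 0.13 and 1.19 ± 0.13 (SE; limma adjusted p of 1.44e-06, 5.58e-07 and 6.17e-08). Kcnd1, which encodes the transient channel Kv4.1, had 0.646 to 1.68 FPKM in UUO and 0 to 0.159 FPKM in sham libraries, and rose by 0.84, 0.92 and 1.07. Kcns3, a silent subunit, had 1.32 to 3.34 FPKM in UUO and 0.383 to 1.16 FPKM in sham libraries, and rose by 0.63, 0.93 and 1.14. None of these 3 genes overlapped between the surgeries.

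Of the auxiliary subunits, Kcnmb1, the beta subunit of the large-conductance calcium-activated channel in smooth muscle, had 0.484 to 1.56 FPKM in UUO and 0.0258 to 0.229 FPKM in sham libraries, and rose by 0.75 ± 0.13, 0.73 ± 0.13 and 0.79 ± 0.13 (SE; limma adjusted p of 3.23e-05, 3.43e-05 and 1.16e-05). The smooth muscle and pericyte marker sums, given above, moved with it, and their part was not tested. Kcnmb1 overlaps the gene Kcnip1 on the other strand, and the sources used here do not say whether the counting used strand. Kcnab2, a beta subunit of voltage-gated channels, had 0.482 to 2.58 FPKM in UUO and 0.110 to 0.401 FPKM in sham libraries, and rose by 0.69, 0.99 and 1.07; it overlaps Nphp4 on the other strand. Kcnip4, a calcium-binding partner of Kv4 channels, was listed at 0 in 10 of 12 sham libraries and at most 0.0467 FPKM in the other 2, against 0.424 to 1.45 FPKM in the 12 UUO libraries, and rose by 0.91, 0.90 and 1.10. Kcnip4 overlaps 5730480H06Rik on the other strand.

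Some calls of the remaining auxiliary subunits were lost with another scaling or without a single library. Kcnip3, which encodes a calcium sensor also known as DREAM, had 1.07, 1.73, 0.895 and 1.57 FPKM in UUO vehicle, 1.99, 2.11, 1.76 and 1.02 FPKM in UUO early, and 1.73, 2.13, 2.19 and 3.77 FPKM in UUO late libraries, against 0.307 to 0.924 FPKM in the 12 sham libraries. UUO vehicle library 3, at 0.895 FPKM, was the one UUO library within the sham range. It rose by 0.84 ± 0.17 in early and 1.11 ± 0.17 in late kidneys (SE; limma adjusted p of 0.000159 and 5.47e-06). Its vehicle rise of 0.44 ± 0.17 (limma adjusted p = 0.0257) was lost with median-of-ratios scaling (0.25) and in 4 of 8 fits without 1 library. It was also lost with summed transcripts (0.12), here the 1 listed transcript of the gene, which may not hold its whole level. Kcne3, a subunit that holds its partner channels open, had 1.64, 0.882, 0.784 and 4.67 FPKM in UUO early and 0.427, 0.207, 0.182 and 0 FPKM in sham early libraries, and rose by 1.16 ± 0.26 (adjusted p = 0.000536), and by 0.79 without UUO early library 4. Its vehicle rise of 0.68 ± 0.26 (adjusted p = 0.0268) was lost with median-of-ratios scaling (0.54), with summed transcripts (0.27) and in 5 of 8 fits without 1 library. Its late difference of 0.33 was not past the threshold. Kcne4, an inhibitory subunit, had 2.00, 1.48, 0.933 and 0.670 FPKM in UUO early and 0.552, 0.415, 0.571 and 0.625 FPKM in sham early libraries and rose by 0.52 ± 0.19 (adjusted p = 0.0178), a call lost with median-of-ratios scaling (0.31) and without UUO early library 1 (0.38) or 2 (0.47). It rose by 0.70 ± 0.19 in late kidneys (adjusted p = 0.00221). Its vehicle difference of 0.22 was not past the threshold. Kcne1l had 0.464 to 1.34 FPKM in UUO and 0.237 to 1.17 FPKM in sham libraries and was not called.

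Partners and regulators of these channels were read from a separate list of 34 genes, 31 of them tested: among them the sodium pump, the chloride cotransporters, the epithelial sodium channel, the WNK kinases and the mineralocorticoid pathway. In UUO vehicle kidneys 4 were called higher and 20 lower, in UUO early kidneys 6 higher and 17 lower, and in UUO late kidneys 7 higher and 14 lower, with median log2 differences of -0.72, -0.61 and -0.50. Over all tested genes 50.3%, 54.7% and 59.0% were called higher and 16.7%, 17.3% and 16.5% lower in the same order. With median-of-ratios scaling the partners called were 3 higher and 24 lower, 3 higher and 22 lower, and 4 higher and 24 lower, and with FPKM rescaled to equal sums they were 5 and 17, 7 and 14, and 8 and 11; both scalings of this list were chosen after its counts were seen. Slc12a1, the sodium, potassium and chloride cotransporter that depends on ROMK for its potassium, fell by 2.12, 1.55 and 1.07 on the log2 scale. It had 12.8 to 29.5 FPKM in UUO vehicle and 92.2 to 141 FPKM in sham vehicle libraries. Without sham vehicle library 2 the vehicle difference was -1.97. It had 34.6 to 49.3 FPKM in UUO early and 117 to 125 FPKM in sham early libraries. The late groups overlapped, with 27.4 to 89.8 FPKM in UUO late and 76.8 to 123 FPKM in sham late libraries. Fxyd2, the gamma subunit of the sodium pump, fell by 0.99, 1.46 and 1.37. Slc12a4, a potassium and chloride cotransporter found in many cell types, rose by 1.31, 1.37 and 1.77, and Maged2, a regulator of the sodium chloride cotransporters, by 1.65, 1.80 and 1.74. Each difference quoted from this list passed the limma threshold, and no rule set beforehand chose the genes quoted.

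Istradefylline moved no potassium channel gene past the threshold, within sham or within obstructed kidneys. limma called 0 of 28 members in UUO early against UUO vehicle (3 at an unadjusted p under 0.05; 0.0152% of all genes called), 0 in UUO late against UUO vehicle (5 unadjusted; 0.137%), 0 in sham early against sham vehicle (0 unadjusted; 0.00762%) and 0 in sham late against sham vehicle (3 unadjusted; 1.42% of all genes called, 0.0609% higher and 1.36% lower). The courses set against each other gave 0 of 28 in UUO early against UUO late (2 unadjusted; 0.0305%) and 0 in sham early against sham late (1 unadjusted; 0.00762%). The tests of whether the obstruction difference itself depended on the drug gave 0 for the early course (1 unadjusted; 0.00762% of all genes) and 0 for the late course (4 unadjusted; 0.0305%). A call that passed under 1 treatment and not another, as for Kcnj1, Kcnj15 and Kcnk1, was therefore not shown to differ between treatments.

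Some members with an unadjusted p under 0.05 are given by their size. Kcnip3 averaged 2.46 ± 0.90 FPKM in UUO late and 1.32 ± 0.40 FPKM in UUO vehicle kidneys (SD, n = 4 each), a log2 difference of 0.56 ± 0.17 (SE; limma adjusted p = 0.239), with 3 of 4 UUO late libraries above the highest UUO vehicle library, and its late interaction was 0.67 ± 0.24 (adjusted p = 0.217). Kcnj15 averaged 13.8 ± 7.15 FPKM in UUO early and 30.9 ± 14.6 FPKM in UUO vehicle kidneys, a difference of -1.16 ± 0.40 (adjusted p = 0.459). Without 1 library at a time that difference was between -1.44, without UUO vehicle library 3, and -0.77, without UUO early library 1. Its early interaction was -1.55 ± 0.57 (limma adjusted p = 0.865). Kcne3 averaged 1.99 ± 1.83 FPKM in UUO early and 0.562 ± 0.384 FPKM in UUO late kidneys, a difference of 0.80 ± 0.26 (adjusted p = 0.424) that was 0.43 without UUO early library 4. Kcng1 averaged 3.21 ± 0.61 FPKM in sham late and 1.69 ± 1.11 FPKM in sham vehicle kidneys, a difference of 0.74 ± 0.22 (adjusted p = 0.0964). It was the one member called in a fit that left out 1 library: without sham vehicle library 4 the difference was 0.96 and past the threshold, and without sham vehicle library 2 it was 0.44 and not past it. These 8 comparisons share libraries, so their values are not independent.

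**Figure D5:**
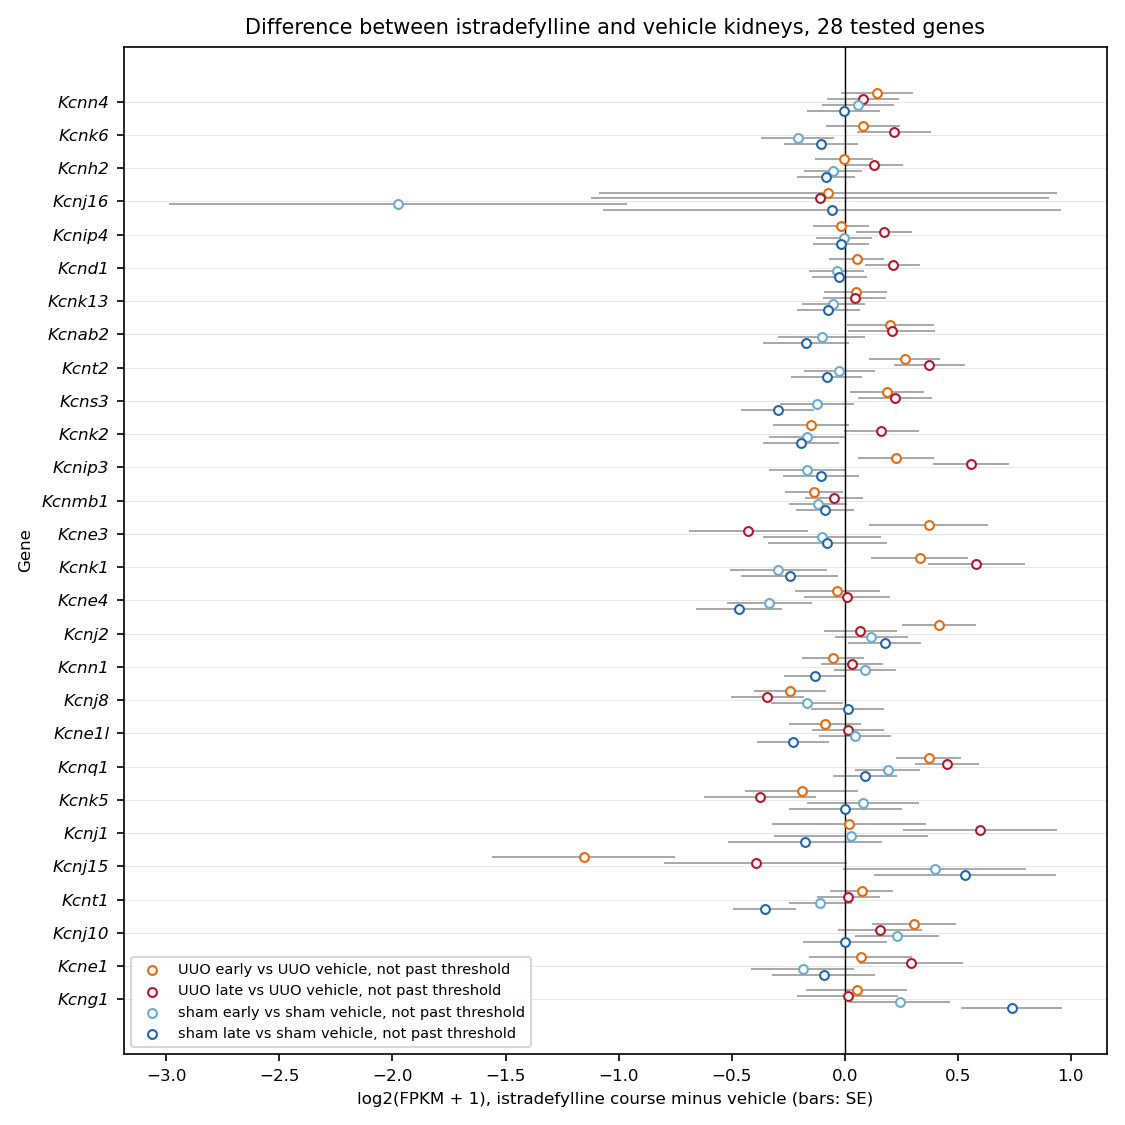
Differences in log2(FPKM + 1), istradefylline course minus vehicle, for the 28 tested potassium channel genes in UUO and sham kidneys, in the gene order of the plot of obstruction differences; points are estimates and bars are standard errors. No point passed an adjusted p of 0.05, and the points farthest from 0 are Kcnj16 in sham early and Kcnj15 in UUO early kidneys.

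By family, the inward rectifiers summed to 137 ± 15.8, 120 ± 24.2 and 137 ± 34.9 FPKM in UUO vehicle, early and late kidneys and 195 ± 60.1, 148 ± 54.1 and 195 ± 57.7 FPKM in sham vehicle, early and late kidneys (SD, n = 4 each), sums that the Kcnj16 values dominate. The two-pore channels summed to 61.7 ± 9.68, 68.0 ± 10.8 and 75.0 ± 11.8 FPKM in UUO and 67.6 ± 13.9, 63.5 ± 7.92 and 60.6 ± 4.83 FPKM in sham kidneys in the same order. The calcium- or sodium-activated channels summed to 4.04 ± 0.74, 4.84 ± 1.46 and 4.84 ± 0.86 FPKM in UUO and 2.60 ± 0.72, 2.54 ± 0.31 and 1.80 ± 0.27 FPKM in sham kidneys. The voltage-gated subunits summed to 14.3 ± 2.66, 15.8 ± 2.71 and 17.1 ± 0.86 FPKM in UUO and 11.3 ± 1.07, 12.0 ± 0.42 and 12.3 ± 1.43 FPKM in sham kidneys. The auxiliary subunits summed to 10.6 ± 1.28, 12.0 ± 1.72 and 12.4 ± 1.38 FPKM in UUO and 12.0 ± 0.53, 9.47 ± 1.38 and 9.32 ± 1.20 FPKM in sham kidneys. Measured per length, the Kcnj and Kcnk families thus held most of the potassium channel RNA of the kidney in both surgeries.

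Of the 12 members too low for the test, 5 are given by level alone. Kcnh8, a voltage-gated channel of the ether-a-go-go family, was listed at 0 in all 12 sham libraries and at 0.296 to 1.01 FPKM in the 12 UUO libraries. Kcnj13, which encodes Kir7.1, ran the other way, with 0 to 0.347 FPKM in UUO and 0.385 to 1.05 FPKM in sham libraries, and it overlaps Gigyf2 on the other strand. Kcnj11, which encodes Kir6.2 of muscle and beta cells, had 0.323 to 0.598 FPKM in 11 UUO libraries, 2.51 FPKM in UUO early library 4, and 0.0675 to 0.307 FPKM in sham libraries. Kcnk3, which encodes TASK-1, had 0.230 to 1.59 FPKM in UUO libraries and 0.0574 to 0.914 FPKM in sham libraries, apart from 3.03 FPKM in sham early library 1. Kcnip2 was highest in sham vehicle library 2, at 2.44 FPKM, against at most 0.804 FPKM in UUO libraries.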

How the data were processed

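RNA of left kidneys in 24 libraries, extracted with Trizol, was made into stranded libraries with a KAPA kit, per the labels' protocols. The authors' deposited FPKM values per gene and per transcript were used as given, per the file headers. cutadapt, HISAT2 and StringTie and the build GRCm38 are named per the submitters' processing notes, with versions not given in the sources used here. The deposited table holds no gene whose highest group mean is under 0.500 FPKM, so lower members were not analysed here. An FPKM holds no count, so depth was estimated and no counting interval is given.

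Genes with at least 1 FPKM in at least 4 libraries were tested with limma 3.58.1 in R 4.3.3 on log2(FPKM + 1), with 1 mean per group, a mean-variance trend, 18 residual degrees of freedom, two-sided tests and Benjamini-Hochberg adjustment over 13127 genes per comparison at 0.05, in 11 comparisons. A log2 difference on this scale understates the change of low genes. The fit was checked on simulated data.

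Named were the 8 most abundant members, up to 6 largest rises and 6 largest falls among calls of each UUO comparison, every member called between treatments or in an interaction, and a set of 27 genes with a textbook role, 22 of them in the table; Kcne1l, Kcnn1, Kcnh8, Kcnip2 and Kcnj13 were named after their values were seen. The members, lists and rules were chosen with earlier results of these data known. Alternatives were other pseudocounts (0.1, 0.5), filters, scalings, no trend, only the groups compared, a replicate block, leaving out each library, and, chosen after seeing the data, summed transcripts.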

Additional observations from a re-analysis of the deposited data

Results flagged for a closer look

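In 18 of 168 pairs of a named member and a group, 1 library stood so far from the other 3 that its gap to the nearest, over the group's range, exceeded Dixon's critical value. Chance alone gives about 1 in 20, or 8.4 pairs. UUO early library 4 and UUO late library 4 account for 3 flags each.

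UUO early library 4 was low for Kcnh2 (0.916 FPKM) and Kcnk5 (10.7 FPKM) and high for Kcnj11 (2.51 FPKM). UUO late library 4 was high for Kcnh2 (2.51 FPKM), Kcnk2 (2.70 FPKM) and Kcnt2 (2.38 FPKM). These libraries had the lowest summed proximal tubule markers, 65.4 and 110 FPKM, and the highest macrophage markers, 697 and 633 FPKM, and the part of that in the flags was not tested.

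Kcnj16 was low in sham vehicle library 4 (4.97 FPKM) and sham late library 2 (5.30 FPKM) and high in sham early library 1 (134 FPKM). Kcnip4 was high in UUO vehicle library 2 (1.45 FPKM). It was also flagged in sham vehicle library 1 (0.0467 FPKM) and sham early library 4 (0.0417 FPKM). In those sham groups the other libraries were at 0, so any value above 0 gives a ratio of 1 and a flag. In sham early kidneys Kcnj15 was high in library 3 (65.9 FPKM) and Kcnk3 in library 1 (3.03 FPKM). In sham vehicle kidneys Kcnk1 was high in library 2 (52.8 FPKM), Kcnn4 high in library 4 (0.156 FPKM) and Kcnj2 low in library 3 (0.426 FPKM). Kcnt1 was high in UUO vehicle library 4 (0.0816 FPKM).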

How the results depend on the processing

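The counts of members called in UUO vehicle, early and late against sham were 20, 23 and 20. They were 9, 11 and 10 with the stricter filter of 2 FPKM, which left 14 members to test, and 27, 31 and 27 of 40 with no filter. They were 18, 24 and 23 with median-of-ratios scaling and 19, 24 and 21 with FPKM rescaled to equal sums. With summed transcripts they were 18, 23 and 20. Leaving out 1 library gave 16 to 20, 22 to 24 and 20 to 22 members. Over all genes, 8790, 9441 and 9920 of 13127 were called as deposited. With no filter 9415, 10249 and 10680 of 14407 genes were called. The stricter filter called 7931, 8456 and 8883 of the genes it kept. Of 13127 genes, median-of-ratios scaling called 8116, 8812 and 9074. Rescaling to equal sums called 9147, 9778 and 10352, and summed transcripts called 7872, 8504 and 8980. The 8 comparisons of treatments and interactions kept 0 members called under every alternative run, except sham late against sham vehicle. That count ranged from 0 to 1 when 1 library was left out (Kcng1, without sham vehicle library 4).

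Directions turned for values that were not past the threshold as deposited. In vehicle kidneys Kcnj15 was 0.11 without UUO vehicle library 3 and 0.15 without sham vehicle library 1, Kcnj16 was -0.011 with median-of-ratios scaling and -0.72 without sham vehicle library 4, and Kcnj8 and Kcnk1 were -0.12 and -0.14 with that scaling. In early kidneys Kcnj8 was -0.25 with median-of-ratios scaling and Kcnq1 was 0.059 when rescaled. In late kidneys Kcnj16, Kcnj2 and Kcnq1 were -0.27, -0.013 and -0.45 with median-of-ratios scaling, Kcnj16 was -0.73 without sham late library 2, and Kcnj8 was 0.063 when rescaled and 0.039 without UUO late library 1. Leaving out 1 library at a time gave -0.44 to 0.15 for Kcnj15 and -0.72 to 0.76 for Kcnj16 in vehicle kidneys, and -0.73 to 0.70 for Kcnj16 and -0.33 to 0.039 for Kcnj8 in late kidneys. The cause was not tested.

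Libraries of the same replicate number correlated at -0.12 to 0.44 in their deviations from the group means. Libraries of different numbers and groups correlated at -0.48 to 0.30. The median was between -0.0095 and 0.015 for each replicate number and 0.0011 for different numbers, so the numbers were not taken to pair libraries. The highest value, 0.44, belonged to replicate number 4 and lay above the range of different numbers. With the replicate block the counts of members called were 20, 24 and 20, and 0 in all other comparisons. Over all genes they were 8866, 9460 and 9958 of 13127. The added member was Kcnj16 in early kidneys (2.27). Depth limits the low members: 1 FPKM of a 2 kb transcript is about 15.4 to 25.7 fragments, and FPKM carry no counting error.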
